A study of Mus musculus with 8 samples.

Results

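The leukocyte integrin genes described here are 9 genes: Itgal, Itgam, Itgax and Itgad with their partner Itgb2, and Itgae and Itga4 with their partners Itgb7 and Itgb1. They were chosen by name, and each gene was given the accessible chromatin regions that lay inside it or within 50 kb of its ends. This gave 86 regions found in both replicates, of 44365 such regions in the whole data set. The data are open-chromatin maps made by ATAC-seq, in which a transposase cuts and tags accessible DNA in nuclei, from 2 replicates of mouse CD8-positive dendritic cells. Both replicates were unstimulated and were grown in IMDM with serum, and no genotype is given. The labels name spleen as the source in one field and a dendritic cell line in another, so it cannot be said whether the cells were primary. The study's 8 samples also include chromatin immunoprecipitation of IRF3, IRF5 and IRF9 after 90 min of stimulation, which was not analysed here. There was 1 condition, so no comparison between conditions was possible. The labels do not tie the replicates to separate cultures or animals, and differences between them may be technical.

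Integrins are cell surface receptors made of an alpha and a beta chain that bind ligands on other cells or in the matrix. Signals from inside the cell switch them between resting and active shapes, through talin, kindlin and the small GTPase Rap1. On dendritic cells they serve in adhesion to T cells, uptake of complement-coated particles, traffic through tissue and retention near epithelia, and the Itgax product CD11c is the standard surface marker of these cells.

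Replicate 1 held 50950 peaks and replicate 2 held 58319. A region is called shared where peaks of both replicates overlapped by at least 1 bp. Fold enrichment is the authors' value for the height of a peak's summit over the local background of the same library, and reads means the number of reads stacked at that summit, worked out from the deposited values. The fewest reads at any listed summit were 7 in replicate 1 and 9 in replicate 2. A gene without a listed region was therefore not detectable as open at this depth and may still be accessible. A region open in few of the cells and a region weakly open in all of them cannot be told apart in such libraries. Regions at the starts of 6 of 10 marker genes of CD8-positive type dendritic cells (cDC1) were shared, among them Flt3, Wdfy4 and Cadm1. Xcr1, Clec9a, Batf3 and Zbtb46 had none. Where the annotation gave no start, as for Cadm1, either end of the gene was accepted. Marker genes of T cells and of NK cells had none at their starts (0 of 4 each), and those of plasmacytoid dendritic cells had 3 of 5, of macrophages and monocytes 3 of 6, of neutrophils 1 of 5, of B cells 1 of 4 and of the cDC2 type 1 of 6. Of all protein-coding genes 48.3% had one, so the cDC1, plasmacytoid and macrophage counts are near the background, and these counts do not settle the cell type.

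A shared region lay within 1 kb of the start of 6 of the 9 integrin genes, beside 48.3% of all 21627 protein-coding genes counted the same way. The annotation gave the start itself for 5 members, and Itgax, Itga4, Itgb1 and Itgb7 had a shared region there while Itgam did not. Among all coding genes with a given start, 49.3% had one. For Itgal, Itgb2, Itgad and Itgae no start was given and either end of the gene was accepted, which Itgal and Itgb2 met and Itgad and Itgae did not. The background for such genes was 44.4%. With 9 genes, these counts do not set the members apart from coding genes in general.

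Promoter sequences from RefSeq (GRCm38.p6, the assembly of mm10) were at hand for 5 members, and 4 are shown because they span the cases described below: a start region with unusually many reads (Itgax), no shared start region (Itgam), a start region with matches to common factor motifs (Itga4) and a CpG-rich start (Itgb1). Each is the 250 bases before the start on the plus strand, written 5′ to 3′ in lower case. Capitals mark matches, on either strand, to 1 of 8 motifs searched.

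Itgax, chr7:128129300-128129549: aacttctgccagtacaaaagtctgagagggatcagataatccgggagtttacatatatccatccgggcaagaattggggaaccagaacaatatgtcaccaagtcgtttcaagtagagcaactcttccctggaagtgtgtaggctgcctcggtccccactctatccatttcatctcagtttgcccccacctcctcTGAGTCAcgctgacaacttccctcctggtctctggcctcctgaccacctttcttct

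Itgam, chr7:128062390-128062639: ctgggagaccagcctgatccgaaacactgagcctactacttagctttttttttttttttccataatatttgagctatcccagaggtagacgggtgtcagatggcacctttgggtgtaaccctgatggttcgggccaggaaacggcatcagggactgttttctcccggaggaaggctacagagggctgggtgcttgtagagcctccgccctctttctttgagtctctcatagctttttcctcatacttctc

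Itga4, chr2:79255176-79255425: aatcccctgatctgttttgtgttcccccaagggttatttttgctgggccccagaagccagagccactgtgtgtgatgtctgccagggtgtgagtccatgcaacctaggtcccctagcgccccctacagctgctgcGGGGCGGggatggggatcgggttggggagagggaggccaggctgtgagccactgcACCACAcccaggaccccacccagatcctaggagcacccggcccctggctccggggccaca

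Itgb1, chr8:128685404-128685653: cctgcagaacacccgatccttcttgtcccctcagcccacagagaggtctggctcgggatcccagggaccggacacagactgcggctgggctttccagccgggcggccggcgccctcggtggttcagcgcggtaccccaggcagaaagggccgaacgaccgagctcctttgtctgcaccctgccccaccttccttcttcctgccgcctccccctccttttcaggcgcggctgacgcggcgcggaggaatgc

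The Itgax window held the AP-1 motif TGANTCA at bases -56 to -50 from the start, a motif found in 6.17% of 21044 such windows over all genes. The Itga4 window held the RUNX motif TGTGGT at bases -60 to -55, read on the opposite strand as ACCACA and present in 12.2% of windows. It also held the Sp1 motif GGGGCGG at bases -115 to -109, present in 28.3% of windows. The other motifs searched were PU.1 (GAGGAAGT, in 2.25% of windows), IRF (GAAANNGAA, 6.90%), the ETS-IRF composite (GGAANNGAA, 6.47%), C/EBP (TTNNGCAA, 9.18%) and the TATA box (TATAAA, 11.7%), and the IRF and ETS-IRF letters can overlap. None of the 8 was found in the windows of Itgam, Itgb1 and Itgb7. A match describes the letters and is not a shown binding site, and no match says only that these letters are not in this window.

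The windows also differed in base composition. The Itgb1 window was 68% G and C with 21 CpG pairs, above the medians of 55.6% and 10 over all windows. Itgax had 50% and 5 CpG pairs, Itgam 49.6% and 6, Itga4 64% and 6, and Itgb7 56% and 5. Shared regions covered all 250 bases in Itgax and Itga4, 205 in Itgb1, 107 in Itgb7 and 0 in Itgam. The member with the CpG-rich window and members with CpG-poor windows alike had shared start regions.

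**Figure D1:**
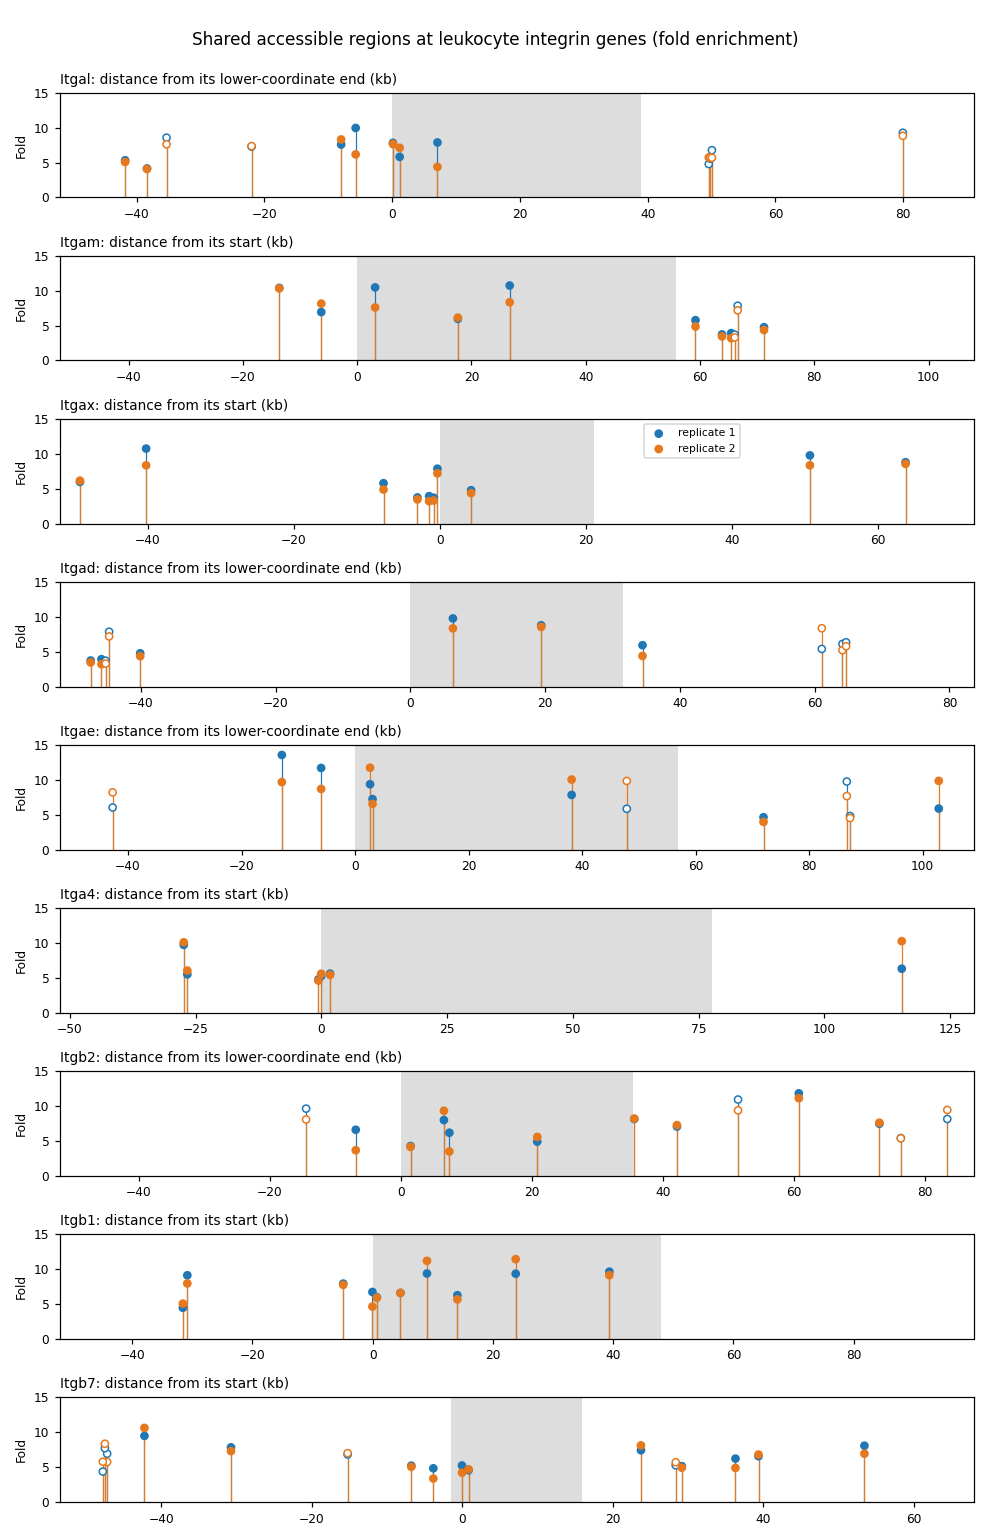
Fold enrichment of each shared region in replicate 1 (blue) and replicate 2 (orange) against its distance in kb from the gene's start, or from its lower-coordinate end where no start is given. Grey marks the gene, and open circles mark regions at the start of another gene. In every window the tallest region of each replicate stands away from the gene's own start, or from its ends where no start is given.

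The first group of genes encodes the chains that pair with Itgb2. Itgal encodes CD11a, which with Itgb2 forms LFA-1, a receptor for ICAMs used in contacts with T cells. At its lower-coordinate end lay the region chr7:127296150-127296369, with 7.82-fold enrichment in replicate 1 and 7.65-fold in replicate 2 (19 and 25 reads). Further regions lay inside the gene at chr7:127297199-127297427 (5.82 and 7.11-fold) and chr7:127303170-127303283 (7.88 and 4.39-fold). The last was the member region with the lowest ratio of reads in replicate 2 to replicate 1, 9 reads against 14.

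On the lower-coordinate side of Itgal, outside any coding gene, lay chr7:127288021-127288280 (7.58 and 8.31-fold) and chr7:127290332-127290515 (9.96 and 6.17-fold). The locus held 13 shared regions, of which 3 were inside the gene and 6 lay at starts of the neighbours Dctpp1, Sephs2, Zfp768 and Zfp747. The best scoring of the 13 was at the start of Dctpp1, chr7:127260622-127261027 (8.57 and 7.62-fold), the gene of a nucleotide-hydrolysing enzyme.

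Itgam, Itgax and Itgad lie side by side on chromosome 7 and share parts of their windows, with 10 regions of the whole set counted in more than 1 window. Itgam encodes CD11b, which with Itgb2 forms complement receptor 3 and is the usual surface marker of myeloid cells and of cDC2. It had no shared region within 1 kb of its start, and the nearest lay 3046 bp inside the gene. Replicate 1 alone had a peak at the start, chr7:128062622-128062700, with 4.96-fold enrichment and 11 reads, a read number close to the weakest listed.

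Away from its start, Itgam was not without accessible regions. Leaving aside the Itgax start region, which its window also holds, the best scoring region lay upstream at chr7:128048811-128049213, centred at -13628 bp, with 10.4-fold enrichment and 29 reads in replicate 1 and 10.3-fold and 37 reads in replicate 2. Inside the gene, the region chr7:128065686-128065876 had 10.5 and 7.60-fold enrichment, and chr7:128089257-128089404 had 10.7 and 8.34-fold. These folds are above the medians of all shared regions, 7.22 in replicate 1 and 7.59 in replicate 2, in both replicates for all 3. The third inside region, chr7:128080212-128080318, was weaker, with 5.97 and 6.15-fold (9 and 13 reads).

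Itgax encodes CD11c, which with Itgb2 forms complement receptor 4. Its start lay in chr7:128128841-128129612, a region 772 bp wide with 3 summits in each replicate. The highest summit held 70 reads in replicate 1 (95% Poisson interval 54.6 to 88.4) and 83 in replicate 2 (66.1 to 103), and 99.8% of all shared regions held fewer in either replicate. The start region was also wider than 99.6% of shared regions, whereas its fold enrichment of 7.86 and 7.19 was near the median of the list.

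The difference between these measures came with the local background. Across 4 adjoining shared regions, chr7:128126442-128129612, from -3108 to 62 bp around the Itgax start, the background was 7.64 to 8.37 reads in replicate 1 and 10.2 to 11.7 in replicate 2. That is 11.3 to 12.4 times the genome-wide background of 0.676 reads in replicate 1, and 7.99 to 9.18 times that of 1.28 in replicate 2. Only 0.291% and 0.359% of all shared regions had a background as high as the lowest of these 4. The 3 narrower regions of the stretch held 31 to 34 reads in replicate 1 and 35 to 43 in replicate 2, and with folds of 3.70 to 3.92 and 3.20 to 3.45 they were among the least enriched of the set.

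The background was lower on both sides. In the cluster outside this stretch it was 0.676 to 5.29 reads in replicate 1 and 1.28 to 7.02 in replicate 2. The highest of these outside values belonged to chr7:128133772-128133905, centred 4288 bp inside Itgax, with 4.77 and 4.36-fold enrichment and 29 and 34 reads. This background was still 7.83 and 5.50 times the genome-wide values. On the other side, chr7:128121588-128122095 lay between Itgam and Itgax with 5.78 and 4.87-fold and a background of 2.46 and 3.93 reads. The number of copies of this stretch in these cells is not given in the labels, and its part in the read numbers was not tested.

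**Figure D2:**
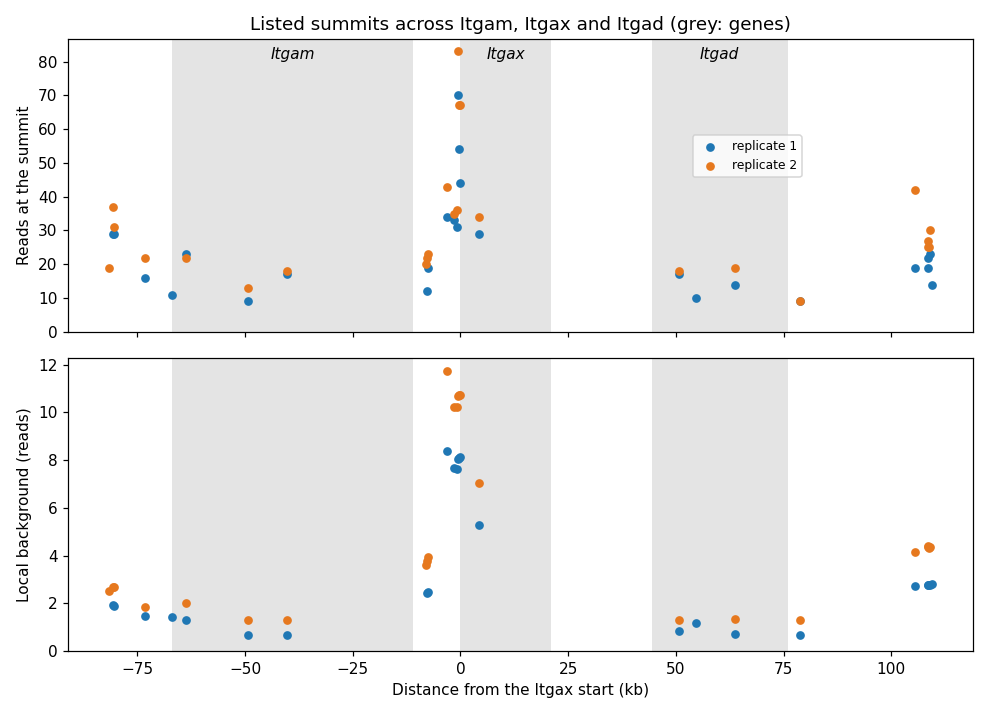
Reads at each listed summit (upper panel) and local background in reads (lower panel) against the distance in kb from the Itgax start, in replicate 1 (blue) and replicate 2 (orange), with the genes in grey. Reads are highest in the Itgax start region in both replicates, up to 70 and 83, the background is highest about 3 kb upstream, up to 8.37 and 11.7 reads, and both are lower over Itgam and Itgad.

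Itgad encodes CD11d, a chain known from macrophages of the spleen. No shared region lay within 1 kb of either end, and the nearest was 2786 bp beyond its higher-coordinate end. Inside the gene were chr7:128180178-128180323, with 9.77 and 8.34-fold enrichment, and chr7:128193253-128193445, with 8.79 and 8.55-fold. They held 17 and 14 reads in replicate 1 and 18 and 19 in replicate 2, over backgrounds of 0.843 and 0.707 reads and of 1.28 and 1.34 reads. The folds at Itgad exceeded that at the Itgax start while the reads were far fewer, and the Poisson intervals of the reads (9.90 to 27.2 and 7.65 to 23.5 in replicate 1) did not reach that of the Itgax start. The best scoring region in the Itgad window was the Itgax start itself, and 3 more regions lay at the starts of its other neighbours 9130023H24Rik and Armc5.

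Itgb2 encodes CD18, the chain shared by all 4 of these receptors. The region nearest to an end was chr10:77565869-77566034, 161 bp beyond the higher-coordinate end, with 8.12 and 8.19-fold enrichment (19 and 27 reads). At the lower-coordinate end there were peaks of single replicates only. Replicate 2 had chr10:77530230-77530366 with 4.49-fold and 17 reads, and replicate 1 had chr10:77531092-77531201 with 4.15-fold and 12 reads, which do not overlap.

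Inside Itgb2, the strongest of 4 shared regions was chr10:77536689-77537128, with 7.98-fold and 31 reads in replicate 1 and 9.31-fold and 49 reads in replicate 2. The window of 13 shared regions also held chr10:77590923-77591191, inside the neighbour Pttg1ip but away from its start, with 11.8 and 11.1-fold. Regions at starts of neighbouring genes numbered 4, at Fam207a, Pttg1ip and Sumo3, of which chr10:77581509-77582058 at Pttg1ip was the best scoring of the window (10.9 and 9.37-fold).

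The second group holds the chains that pair with Itgb7 or Itgb1. Itgae encodes CD103, which with Itgb7 binds E-cadherin on epithelial cells and marks many cDC1 of tissues. No shared region lay within 1 kb of either end. The nearest, chr11:73092960-73093314, lay 2455 bp inside the lower-coordinate end and was the best scoring of the window, with 9.37-fold and 25 reads in replicate 1 and 11.7-fold and 42 reads in replicate 2. A weaker region followed at chr11:73093472-73093667 (7.24 and 6.55-fold).

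Outside Itgae on the lower-coordinate side lay chr11:73077478-73077711, with 13.6 and 9.68-fold enrichment, and chr11:73084397-73084629, with 11.7 and 8.69-fold. The former holds the highest fold of replicate 1 in the set and lies inside the neighbour Ncbp3. Deeper inside Itgae were chr11:73128521-73128774 (7.84 and 10.0-fold) and chr11:73138250-73138482 (5.85 and 9.84-fold), the latter at the start of Haspin, a kinase gene within Itgae. Itgae thus held above-median folds in both replicates at regions away from its ends, as Itgam did. The windows of Itgal, Itgb2, Itga4, Itgb1 and Itgb7 held such regions too. The trait was therefore not particular to members without a shared start region. Other starts in the window were those of Ncbp3, Emc6 and Tax1bp3.

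Itga4 encodes CD49d, which with Itgb1 binds VCAM-1 and with Itgb7 binds MAdCAM-1. At its start lay the wide region chr2:79255064-79255685 (622 bp), with 5.25-fold and 21 reads in replicate 1 and 5.58-fold and 34 reads in replicate 2. A second start region, chr2:79254707-79254936, had 4.77 and 4.60-fold. The start folds were below the medians of the best start region over all open coding genes, 8.12 in replicate 1 and 8.40 in replicate 2. Stronger was the upstream region chr2:79227761-79228327 (567 bp wide), centred at -27382 bp and outside any coding gene, with 9.72 and 10.1-fold (29 and 44 reads). Itga4 had 6 shared regions, the fewest of the set, and none of them lay at the start of another gene.

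Itgb1 encodes CD29, the common beta chain of many matrix receptors. Its start lay in chr8:128685449-128685785, with 6.71-fold and 27 reads in replicate 1 and 4.62-fold and 30 reads in replicate 2. A second region near the start, chr8:128686279-128686426, had 5.94 and 5.87-fold. The read numbers at the Itgb1 start (intervals 17.8 to 39.3 and 20.2 to 42.8) lay below those of the Itgax start without overlap. Its local background was lower too, 3.18 and 5.71 reads against 8.04 and 10.7 at the Itgax start.

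Of 10 shared regions at Itgb1, 7 touched the gene, the most of the set, and none lay at another gene's start. The highest folds of replicate 2 were those of chr8:128694555-128694826, centred 9036 bp into the gene with 9.35 and 11.2-fold (28 and 50 reads), and chr8:128709371-128709515 with 9.32 and 11.4-fold (17 and 32 reads). In replicate 1 the highest fold was that of chr8:128724956-128725077, with 9.61-fold there and 9.11-fold in replicate 2 (16 and 23 reads). Best scoring by the weaker of the replicates' −log10 q was the upstream region, centred at -30821 bp, chr8:128654573-128655093, with 9.09 and 7.93-fold (34 and 46 reads). Chromosome 8 had the highest median local background of the autosomes and X in both replicates, 2.14 reads against 1.47 over all summits in replicate 1 and 3.26 against 2.24 in replicate 2. The part of this in the values at Itgb1 was not tested.

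Itgb7 encodes the chain shared by the gut-homing receptor with Itga4 and the epithelial receptor with Itgae. It lies on the minus strand, and its start lay in chr15:102231908-102232042, with 5.20-fold and 22 reads in replicate 1 and 4.17-fold and 24 reads in replicate 2. A second region within 1 kb, chr15:102231006-102231201, had 4.52 and 4.66-fold. Both were below the median fold of all shared regions.

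The best scoring region of the Itgb7 window was chr15:102274077-102274281, centred at -42244 bp and outside any coding gene, with 9.44-fold and 27 reads in replicate 1 and 10.6-fold and 40 reads in replicate 2. The window held 16 shared regions, more than the windows of 97.5% of all coding genes. Of these, 5 lay at the starts of the neighbours Zfp740, Rarg and Mfsd5 and only 2 touched Itgb7.

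Across the set, the number of shared regions per gene with its flanks was 13 for Itgal, 11 for Itgam, 10 for Itgax, 11 for Itgad, 11 for Itgae, 6 for Itga4, 13 for Itgb2, 10 for Itgb1 and 16 for Itgb7. The members' median of 11 stood beside a median of 5 over all coding genes (quartiles 1 and 8, highest 41). Windows of long genes are wider, and per 100 kb of window the medians were 8.26 for the members and 3.35 for all genes. Inside the genes the medians were 3 and 1. Each member's count was above the median of all genes, Itga4 least so, with more regions than 57.5% of genes. Neighbouring members and neighbouring genes share regions, so the counts are not independent of each other, and no test was made.

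**Figure D3:**
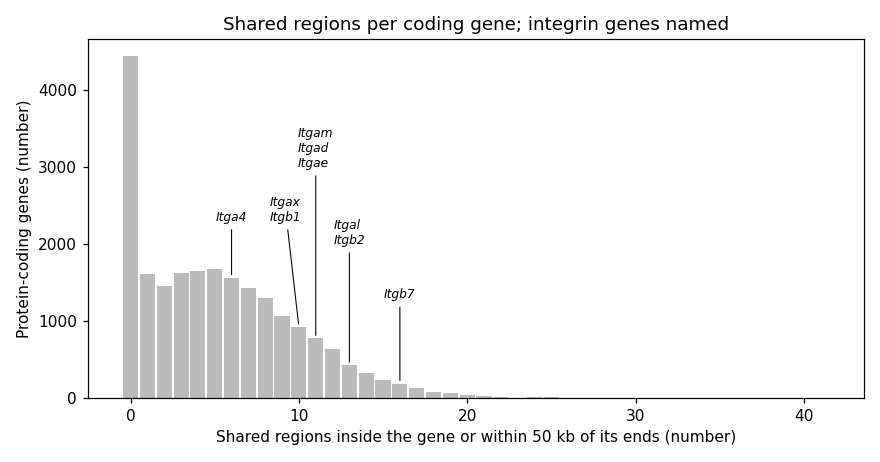
Number of protein-coding genes (vertical axis) by the number of shared regions inside the gene or within 50 kb of its ends (horizontal axis). The integrin genes lie between 6 and 16, to the right of the median of 5 over all genes.

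The 86 regions were split by where they lay. At starts of members, or at either end where no start is given, there were 10. At starts of coding genes outside the set, counted the same way, there were 22, and at neither 54. Inside a member gene there were 29. Assigned to the nearest coding gene only, 45 regions belonged to a member, so the counts above describe neighbourhoods as much as the genes.

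The replicates held nearly the same number of peaks at these loci, 103 in replicate 1 and 104 in replicate 2. In replicate 1, 90 of the 103 were shared (87.4%, exact Clopper-Pearson 95% interval 79.4 to 93.1%), beside 90.0% of its whole list. In replicate 2, 87 of 104 were shared (83.7%, 75.1 to 90.2%), beside 76.5% of its whole list. Peaks of a single replicate were weaker, with a median fold of 4.65 for 13 peaks in replicate 1 and 4.88 for 17 in replicate 2, against 6.55 and 6.77 for shared peaks. Every member but Itgb1 in replicate 1 and Itgax in replicate 2 had at least 1 such peak in each replicate.

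Fold enrichment at the shared integrin regions had a median of 6.64 (3.70 to 13.6) in replicate 1 and 6.83 (3.20 to 11.7) in replicate 2, somewhat below the medians of 7.22 and 7.59 over all shared regions. Over the 86 regions the folds of the replicates had a Spearman rho of 0.76, and over all shared regions 0.75. These are descriptions across regions, which share a library and its depth. Reads were higher in replicate 2 at 75 regions and in replicate 1 at 7, with a median ratio of 1.32 beside 1.44 over all shared regions. The ratio ran from 0.643 at Itgal to 2.56 at chr11:73193247-73193405 in the Itgae window (9 and 23 reads), while 90% of all shared regions lay between 0.947 and 2.14. In the stretch at the Itgax start it was 1.06 to 1.27.

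**Figure D4:**
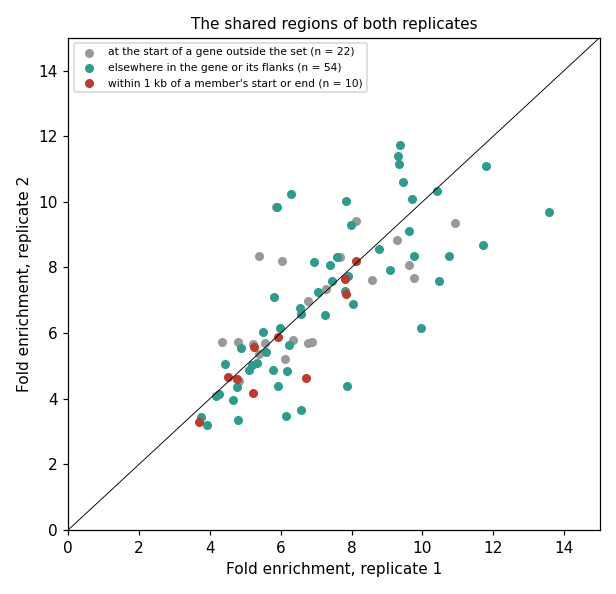
Fold enrichment in replicate 1 against replicate 2 for the 86 shared regions, coloured by place, with the line of equal values. The 10 regions at member starts, or at either end where no start is given, lie between 3.70 and 8.12 in replicate 1. All higher values belong to regions elsewhere.

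Start regions of the members spanned 3.70 to 8.12-fold in replicate 1 and 3.30 to 8.19-fold in replicate 2. For Itgal and Itgb2 no start was given, and a region within 1 kb of either end was counted. The Itgb2 region lay 161 bp beyond its higher-coordinate end, and the annotation used here does not say whether this end is its start. For the best start region of each member the mean fold of both replicates was 8.16 at Itgb2, 7.74 at Itgal, 7.52 at Itgax, 5.66 at Itgb1, 5.41 at Itga4 and 4.69 at Itgb7. Itgb2, Itgal and Itgax lay between 7.19 and 8.19 in the single replicates and are not separable, whereas Itgb1, Itga4 and Itgb7 were lower than those 3 in both replicates. Itgb7 was also below Itgb1 and Itga4 in both replicates, though by only 5.20 against 5.25 for Itga4 in replicate 1. The order of Itgb1 and Itga4 differed between the replicates. The second Itgb1 start region (5.94 and 5.87-fold) was above the best Itga4 one in both. The second Itgb7 start region (4.52 and 4.66-fold) was above the best Itgb1 one in replicate 2 (4.62). Of these 6 genes, only Itgb2 in replicate 1 reached the median fold of all open coding genes, by a region at an end that may not be its start. By reads the order was another one: Itgax had 70 and 83, and the other 5 had 19 to 27 in replicate 1 and 24 to 34 in replicate 2, where their Poisson intervals overlap. The median reads of the best start region over all open coding genes were 23 in replicate 1 and 33 in replicate 2. Itgax was above both, Itgb1 was above in replicate 1 alone (27) and Itga4 in replicate 2 alone (34). Itgal, Itgb2 and Itgb7 were below both. The local background at the Itgax start region was also the highest of the 6 in both replicates. At Itgb1, Itga4 and Itgb7 it was 3.18, 3.19 and 3.42 reads in replicate 1, against 1.56 at Itgal and 1.46 at Itgb2. In replicate 2 it was 5.71, 5.28 and 4.995 against 2.40 and 2.42. Reads at the same 3 genes were 27, 21 and 22 in replicate 1, against 19 at both Itgal and Itgb2. In replicate 2 they were 30, 34 and 24 against 25 and 27. The part of the background in the lower folds was not tested.

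Of the 18 other integrin genes, 8 had a shared start region, which is near the 48.3% of all genes. Those with the highest mean fold were Itga1 (9.06 and 13.1-fold), a collagen receptor chain, Itgb2l (7.16 and 12.3-fold), a relative of Itgb2, and Itga8 (8.79 and 6.59-fold). No shared start region was found for Itga2, Itga7, Itga9, Itga10, Itga11, Itgb3, Itgb4, Itgb5, Itgb6 and Itgb8. The windows of all 18 genes held a median of 7.5 shared regions beside 11 for the members. The difference between the lists was not tested.

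Genes whose products activate integrins or tie them to actin had a shared start region in 16 of 18 cases, beside 48.3% of all genes. The highest mean folds were at Rassf5 (10.9 and 11.5-fold), which carries the Rap1 signal to LFA-1, at Cyth1 (11.7 and 8.76-fold), a regulator of Itgb2 receptors, and at Skap1 (12.5 and 7.02-fold), an adaptor. For Skap1 no start was given, and either end of the gene was accepted. The talin gene Tln1 had 6.83 and 5.95-fold and the leukocyte kindlin gene Fermt3 had 5.91 and 4.81-fold. Fermt2, the kindlin of other tissues, and Rasgrp2, an exchange factor for Rap1, had none. Many of the genes in this list work in most cell types, and their share cannot be read as particular to these cells.

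Ligand genes had a shared start region in 4 of 15 cases, beside 48.3% of all genes. These were F11r (9.76 and 9.36-fold), Icam1 (8.14 and 6.90-fold), Icam2 (6.35 and 6.62-fold) and Icam5 (5.58 and 5.46-fold). Icam2 had no given start, so either end of the gene was accepted. Icam4, Vcam1, Madcam1, Cdh1, Fn1, Jam2, Jam3, Fga, C3, Thy1 and Spp1 had none. The windows of the ligand genes held a median of 5 shared regions, equal to that of all coding genes.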

How the data were processed

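Open chromatin was measured by ATAC-seq in 2 replicates of unstimulated cells, grouped by their titles. Each replicate has its own peak list. Per the submitters' processing notes, the tools were MACS2, HOMER 4.9.1, BWA 0.7.17, Picard 2.8.1 and Trimmomatic, with mm10 and no roles stated. The threshold, the shift of reads for the transposase and the handling of duplicates are not given in the sources used here, and they decide which weak peaks are listed. The score in the deposited lists equals 10 times −log10 q. The deposited fold enrichment is a ratio of summit to local background, each with 1 added, so the scale of the folds depends somewhat on depth. The deposited −log10 p and q compare the summit with that background. All are the authors' own.

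Summits of 1 peak were joined, and the summit with the highest score gave the peak's values. Fold and Poisson p together gave the reads and background of each summit, and 100% of deposited −log10 p values were returned within 0.002. Intervals (95%, exact Poisson or Clopper-Pearson) cover counting error only. The 59606 and 68000 listed summits are no library totals, and total depth is unknown. If reads were extended alike in both, the genome-wide backgrounds of 0.676 and 1.28 reads reflect relative depth.

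Gene positions came from RefSeq (GRCm38.p6). Starts are given for 17273 of 21627 coding genes of the autosomes and X; either end stood in for the rest, and exons, introns and UTRs were not assigned. The start of a gene is a window of 1 kb around it. Where a gene had more than 1 start region, the best scoring one gave the values of gene lists. The members and gene lists were chosen with earlier results of these data known. Named by rule were all members, their start regions, their region with the best smaller −log10 q, neighbours with a start region in a window and, of each other list, the 3 genes with the highest mean fold and all without a start region. Other regions, single-replicate peaks, Tln1, Fermt3, Icam5 were added after their values were seen. The T cell marker Trac had no entry in the table. Marker lists were used for the check of cell type. No tests were run, since there is 1 condition. Scripts were tested on simulated data. Alternatives were the overlap, the better 50% of each list, flanks of 20 and 100 kb, gene bodies, the nearest gene, start windows of 500 bp and 2 kb, either gene end and leaving out a replicate. Leaving out the stretch at Itgax was chosen after seeing the data. Python 3.11.15, numpy 2.4.6, scipy 1.17.1, pandas 2.3.3 and matplotlib 3.10.9 were used.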

Additional observations from a re-analysis of the deposited data

How the results depend on the processing

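The 86 shared regions became 39 with the better 50% of each list, 57 with flanks of 20 kb, 29 inside the genes and 45 by nearest coding gene. They were 81 with a reciprocal overlap of 50%, 122 with flanks of 100 kb and 82 without the stretch at Itgax, a setting chosen after seeing the data. The share of replicate 1 peaks that were shared was 78.6% with a reciprocal overlap of 50%, and that of replicate 2 was 75% with the better 50% of each list. Peaks of 1 replicate alone gave 103 to 104 regions and 6 to 7 genes with a start region, the 7 including Itgam from replicate 1; shares have no value without a replicate. Genes with a start region numbered 4 with the better 50% of each list, which lost Itga4 and Itgb7, 5 with either gene end in place of given starts, which lost Itgb7, 5 without the stretch at Itgax, which lost Itgax, and 6 under the other settings. The number of regions per gene moved by over 1.5 times for 8 of the 9 genes with the better 50% of each list and inside the genes, 7 by nearest gene, 6 with 20 kb, 4 with 100 kb, 3 without the stretch and 0 under the other settings. No paired analysis was possible because processed files of 1 group were used, and replicate numbers pair samples only across groups. Sites with fewer than 7 or 9 reads are not listed at this depth.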
